A study of Homo sapiens with 4 samples.

Results

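The genes described here are 10 genes of serine synthesis and of the response driven by the transcription factor ATF4, namely PHGDH, PSAT1, PSPH, SHMT2, ASNS, ATF4, DDIT3, DDIT4, TRIB3 and CHAC1. Every probe that the platform annotation gives to 1 of these symbols was taken, which made 15 of the 47322 probes on the array and 10 of the 20045 genes they name. They were followed in K562, a human erythroleukemia cell line with the BCR-ABL fusion, in a stable line carrying a short hairpin RNA against KLF3 (2 arrays) and in a stable line carrying a control hairpin (2 arrays). KLF3 belongs to the Krüppel-like zinc finger proteins and represses genes through CACCC-type sequences. Both lines were grown in RPMI medium with 10% fetal bovine serum and had no further treatment. The labels leave unsaid whether the arrays of a group came from cultures grown apart, so each group stands for 1 line, and every p-value rests on a spread between arrays that could be technical.

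Serine is made from a glycolytic intermediate in a short chain of reactions. PHGDH oxidises phosphoglycerate in the first step, PSAT1 adds an amino group and PSPH removes the phosphate, and SHMT2 then splits serine into glycine and a one-carbon unit in mitochondria. ATF4 is a basic leucine zipper factor whose mRNA is translated better when the initiation factor eIF2 is phosphorylated, as happens when amino acids or heme run short or proteins misfold. In amino acid shortage it switches on the serine enzymes and the asparagine synthetase ASNS. In stronger stress it also induces DDIT3 (the factor CHOP), the pseudokinase TRIB3, the glutathione-degrading enzyme CHAC1 and DDIT4 (REDD1), an inhibitor of the kinase complex mTORC1.

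ATF4 acts on its targets together with C/EBP factors through a composite element, the C/EBP-ATF response element, with the core letters TGATGNAA. The 250 bases before the RefSeq start (assembly GRCh38.p14) are shown for 4 genes. The windows shown of ASNS and CHAC1 hold those letters, and those of PHGDH and DDIT3 do not. ASNS and PHGDH were higher in the KLF3 knockdown, ASNS on its brighter probe only, and CHAC1 and DDIT3 were lower. The differences of ASNS, PHGDH and CHAC1 did not pass the test under every setting, as given below. The windows are written 5′ to 3′ in the direction of the gene, with matches to TGATGNAA or its reverse complement in capitals.
ASNS (chr7:97872409-97872658, minus strand): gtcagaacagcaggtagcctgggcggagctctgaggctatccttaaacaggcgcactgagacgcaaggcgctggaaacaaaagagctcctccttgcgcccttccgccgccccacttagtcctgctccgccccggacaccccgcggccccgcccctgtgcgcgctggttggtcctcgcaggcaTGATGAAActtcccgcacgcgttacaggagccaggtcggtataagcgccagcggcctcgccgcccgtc
PHGDH (chr1:119711684-119711933, plus strand): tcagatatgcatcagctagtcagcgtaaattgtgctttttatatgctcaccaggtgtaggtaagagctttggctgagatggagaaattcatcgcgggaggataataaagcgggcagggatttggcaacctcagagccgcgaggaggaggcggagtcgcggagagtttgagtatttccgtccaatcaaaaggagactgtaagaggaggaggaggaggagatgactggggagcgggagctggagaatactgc
CHAC1 (chr15:40953221-40953470, plus strand): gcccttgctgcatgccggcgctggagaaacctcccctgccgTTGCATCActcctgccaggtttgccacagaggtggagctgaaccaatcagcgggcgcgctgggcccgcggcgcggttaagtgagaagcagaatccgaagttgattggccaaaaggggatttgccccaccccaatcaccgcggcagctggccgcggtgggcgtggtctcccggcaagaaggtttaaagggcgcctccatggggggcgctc
DDIT3 (chr12:57520515-57520764, minus strand): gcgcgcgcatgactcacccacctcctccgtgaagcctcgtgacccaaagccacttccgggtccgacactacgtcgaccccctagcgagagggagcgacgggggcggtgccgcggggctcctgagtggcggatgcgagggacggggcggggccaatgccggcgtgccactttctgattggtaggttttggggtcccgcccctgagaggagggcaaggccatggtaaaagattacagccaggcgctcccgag
The ASNS match, TGATGAAA, lay 68 to 61 bases before the start on the gene's strand, and the CHAC1 match, TTGCATCA, lay 209 to 202 bases before the start and reads as the motif on the other strand. Windows were matched by symbol for 8 of the 10 genes (13 windows, since some genes have several starts), not for PSPH and SHMT2. Searched on both strands, TGATGNAA was found in 2 of the 13 windows, against 3.15% of 34943 windows of this length over all genes. The letters CACCC were found in 8 of the 13 windows (ASNS, DDIT3, TRIB3 and CHAC1), against 54.7% of all windows, and they overlapped no TGATGNAA match in the member windows. A match is a description of letters and not of a binding site, and a window without one says nothing about the factor.

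Signals were background-corrected, quantile-normalized and taken to log2, so each log2 value is of the corrected signal plus an offset of 16, and differences of dim probes are understated. A probe counted as detected at a detection p-value under 0.01. Probes detected on both arrays of at least 1 group entered 1 limma fit, 15722 in all, and "passed" means a Benjamini-Hochberg adjusted p under 0.05 over all of them. Of these, 34.5% passed, 16.9% higher and 17.5% lower in the KLF3 knockdown. Duplicate arrays correlated with r = 0.995 in the KLF3 knockdown and 0.996 in control over these probes, while a knockdown and a control array correlated with r of 0.974 to 0.975. KLF3 itself was not well above background on any array (0 of 2 probes detected), so the arrays give no check of the depletion. Erythroid K562 markers were present, with 13 of 14 measurable genes kept, and the 3 genes of the chromosome 9 stretch that K562 has lost, CDKN2A, CDKN2B and MTAP, were undetected. Lymphoid markers were kept for 1 of 10 genes (CD79B), epithelial markers for 1 of 8 (EPCAM) and fibroblast markers for 0 of 8. Of the 13 erythroid markers 6 rose and 1 fell, beside 17.4% of all genes higher and 18.5% lower. The embryonic globin HBZ was higher by 2.25 on the log2 scale but lies on chromosome 16, whose genes were higher in general. HBE1, on chromosome 11, was higher by 1.84, and TFRC, the 1 that fell, was lower by 0.60. The part of this erythroid difference in the results that follow was not tested. In RNA from whole cultures, fewer cells with a transcript and less of it per cell cannot be told apart.

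In the KLF3 knockdown most of the ATF4 arm and part of the serine synthesis arm passed the test, in opposite directions. ATF4, DDIT3, TRIB3 and CHAC1 fell, each to between 0.63 and 0.78 of the control level on at least 1 probe. PSPH rose 1.85-fold, and PHGDH and 1 of the ASNS probes rose by about 0.3 on the log2 scale. PSAT1, SHMT2 and DDIT4 did not pass. Of the 15 member probes 14 were kept, and 4 of these passed as higher and 5 as lower, 64.3% in all, beside the 34.5% of all kept probes. The median log2 difference of the 14 probes was -0.07, beside -0.01 over all kept probes. Groups did not overlap for 12 of the 14, which also held for 71.4% of all kept probes. The members were proposed with earlier results of these data known, so their count is a description.

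**Figure D1:**
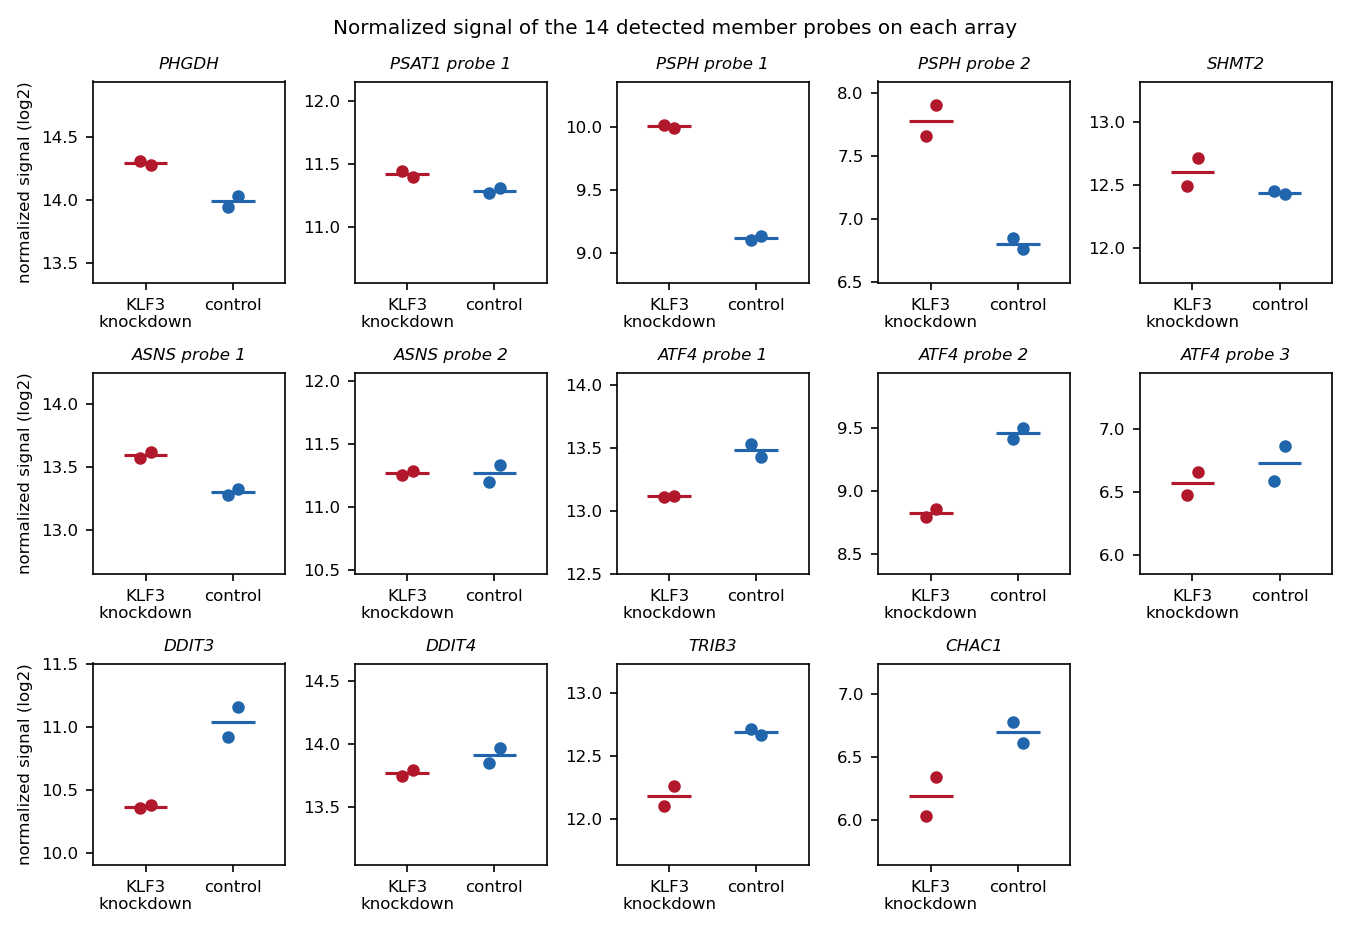
Normalized log2 signal (vertical axis, each panel spanning the same range of log2 units) of the 14 detected member probes on the 2 KLF3 knockdown arrays (red) and the 2 control arrays (blue), with lines at the group means. PSPH was higher and ATF4, DDIT3, TRIB3 and CHAC1 were lower on both KLF3 knockdown arrays, while for ASNS probe 2 and ATF4 probe 3 the groups overlapped.

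PSPH, the phosphatase that completes serine synthesis, was higher on both of its probes. Its brighter probe (ILMN_1776105) gave scanner intensities of 1165 and 1081 in the KLF3 knockdown against 673 and 682 in control. On the normalized scale these were 10.02 and 9.99 in the KLF3 knockdown against 9.10 and 9.13 in control. Both knockdown arrays were high, with a gap between groups far wider than that within them. The difference was 0.89 (SE 0.08, limma adjusted p = 0.00161), and its 95% interval in fold ran from 1.61 to 2.14. The dimmer probe (ILMN_2147114) read 7.65 and 7.90 in the KLF3 knockdown against 6.85 and 6.76 in control, a difference of 0.97 (SE 0.11, limma adjusted p = 0.00274). Between the PSPH probes the difference in log2 difference was -0.09. A difference of at least this size was seen in 4.30% of kept probes for the brighter and 3.24% for the dimmer probe. Both PSPH probes passed under every alternative tried, the dimmer with a difference of 0.57 without background correction. Of the 10 tested genes nearest to PSPH on chromosome 7, 1 rose and 2 fell, and their median log2 difference was -0.09. RefSeq lists pseudogenes of PSPH, PSAT1, ASNS and ATF4, so for these 4 genes the probes cannot be assigned with certainty to the gene alone.

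PHGDH, which commits carbon to serine, was higher by a small amount. It read 14.31 and 14.28 in the KLF3 knockdown against 13.95 and 14.04 in control, from scanner intensities of 20354 and 19073 in the KLF3 knockdown against 16641 and 17106 in control. The arrays of the groups did not overlap, and the difference was 0.30 (SE 0.09, limma adjusted p = 0.0427), or 1.23-fold with a 95% interval from 1.06 to 1.43. A difference of this size or more was common, at 41.0% of kept probes. The call did not hold with median scaling (0.23, limma adjusted p = 0.129), with no filter (0.126) or without any 1 of the 4 arrays (limma adjusted p between 0.0804 and 0.208), and over its 12 alternatives the adjusted p lay between 0.00183 and 0.208. With the replicate number as a block the limma adjusted p was 0.0682.

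PSAT1 and SHMT2 lay above control on both knockdown arrays but did not pass. The detected PSAT1 probe read 11.45 and 11.40 in the KLF3 knockdown against 11.27 and 11.31 in control, a difference of 0.13 (95% interval -0.07 to 0.34, limma adjusted p = 0.259). A second PSAT1 probe (ILMN_1712563) was undetected on every array, with intensities of 111 and 108 in the KLF3 knockdown against 111 and 118 in control. SHMT2 read 12.49 and 12.71 in the KLF3 knockdown against 12.45 and 12.42 in control, a difference of 0.17 (95% interval -0.09 to 0.42, limma adjusted p = 0.259). One knockdown array of SHMT2 stood near the control arrays and the other apart from them, and the interval includes both no difference and a rise of the size of PHGDH. For PSAT1 the interval likewise reaches past the value of PHGDH. Whether PHGDH and PSPH differed by unequal amounts was not tested.

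ASNS, which makes asparagine from aspartate and glutamine, gave unlike values on its probes. The brighter probe (ILMN_1796417) read 13.57 and 13.62 in the KLF3 knockdown against 13.28 and 13.32 in control, a difference of 0.29 (SE 0.09, limma adjusted p = 0.0423). The other probe (ILMN_2398107) read 11.25 and 11.29 in the KLF3 knockdown against 11.20 and 11.33 in control, and its groups overlapped (difference 0.00, 95% interval -0.22 to 0.23, limma adjusted p = 0.982). Taken within each array, the brighter probe stood 2.32 and 2.33 above the other in the KLF3 knockdown against 2.08 and 1.99 in control. The mean of both probes did not pass (0.15, limma adjusted p = 0.182), nor did the brighter probe with median scaling (0.21, limma adjusted p = 0.145), with no filter (0.123), with the replicate number as a block (limma adjusted p = 0.0648) or without any 1 array (between 0.0646 and 0.192). Over its 13 alternatives the adjusted p of the brighter probe lay between 0.00181 and 0.192.

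ATF4 mRNA was lower in the KLF3 knockdown on all 3 of its probes, on 2 of them past the threshold. The brightest (ILMN_1672128) read 13.11 and 13.12 in the KLF3 knockdown against 13.53 and 13.43 in control, from intensities of 9018 and 8545 in the KLF3 knockdown against 12378 and 11411 in control. Its difference was -0.36 (SE 0.09, limma adjusted p = 0.0251). The next (ILMN_2358457) read 8.80 and 8.86 in the KLF3 knockdown against 9.42 and 9.50 in control, a difference of -0.63 (SE 0.09, limma adjusted p = 0.00471). On both, the knockdown arrays were low and close to each other. The dimmest (ILMN_1783394) read 6.47 and 6.66 in the KLF3 knockdown against 6.59 and 6.87 in control, with overlapping groups (-0.16, limma adjusted p = 0.358). The second probe passed under every alternative tried. The brightest did not pass without any 1 array (limma adjusted p between 0.0552 and 0.143) or with no filter (0.0868), within a range over its 13 alternatives from 0.000429 to 0.143. ATF4 is controlled mainly through translation and these arrays measure RNA only, so its protein was not measured here.

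DDIT3, the stress-induced factor CHOP, was lower by about as much as the second ATF4 probe. It read 10.36 and 10.38 in the KLF3 knockdown against 10.93 and 11.16 in control, with intensities of 1458 and 1399 in the KLF3 knockdown against 2089 and 2427 in control. The knockdown arrays were close together and the control arrays further apart, with no overlap. DDIT3 fell by 0.68 on the log2 scale (SE 0.11, limma adjusted p = 0.00703), which placed it among the 9.59% of kept probes with a difference this large. Its call held under every alternative tried.

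TRIB3, a pseudokinase induced by ATF4 and DDIT3 that restrains AKT signalling and ATF4 itself, read 12.10 and 12.26 in the KLF3 knockdown against 12.71 and 12.66 in control. Both knockdown arrays were low, and the difference was -0.51 (SE 0.10, limma adjusted p = 0.0118). Without control replicate 1 or 2 the adjusted p was 0.0727 and 0.062, and with no filter 0.054, within a range over its 12 alternatives from 4.46e-05 to 0.0727.

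CHAC1, which breaks down glutathione, lay close to background. Its intensities were 175 and 185 in the KLF3 knockdown against 225 and 211 in control, and its normalized values 6.03 and 6.34 in the KLF3 knockdown against 6.78 and 6.61 in control. The knockdown arrays were the lower ones and differed from each other by 0.31, the widest gap between duplicates of any kept member probe in either group. CHAC1 fell by 0.51 (SE 0.13, limma adjusted p = 0.0297). Without background correction the difference was -0.22 and in the authors' processed values -0.21. With no filter the limma adjusted p was 0.122, and without knockdown replicate 1 or control replicate 1 or 2 the adjusted p was 0.0767, 0.152 and 0.0784, within a range over its 12 alternatives from 0.0126 to 0.152.

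DDIT4, which restrains mTORC1 through the TSC complex, read 13.75 and 13.79 in the KLF3 knockdown against 13.85 and 13.97 in control. Both knockdown arrays were the lower ones, from intensities of 13735 and 13346 in the KLF3 knockdown against 15740 and 16533 in control, but the difference of -0.14 did not pass (95% interval -0.37 to 0.08, limma adjusted p = 0.262). That interval includes a fall as large as that of the brightest ATF4 probe.

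**Figure D2:**
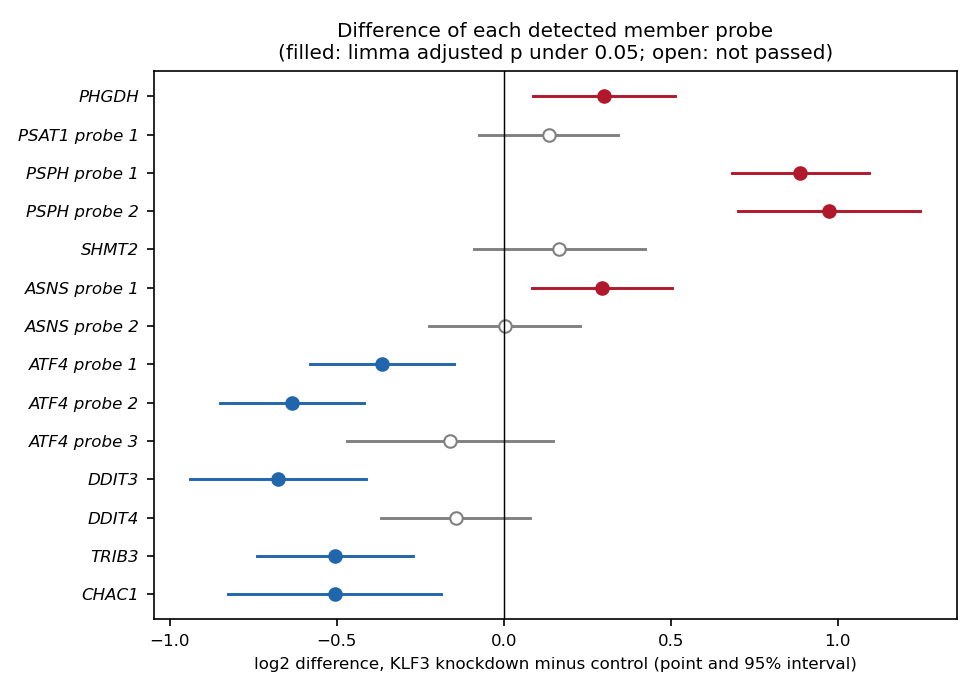
Log2 difference, KLF3 knockdown minus control (horizontal axis), of the 14 detected member probes with its 95% interval from the limma fit, where filled points passed the adjusted threshold and open points did not. The 4 higher probes belong to PHGDH, PSPH and ASNS, and the 5 lower ones to ATF4, DDIT3, TRIB3 and CHAC1.

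None of the 10 genes lies on chromosome 16, whose genes were higher in general in the KLF3 knockdown (244 of 458 higher and 19 lower, median 0.36, against -0.03 for all other genes). The tested neighbours of each member, up to 5 on each side, had medians between -0.20 and 0.19, and no more than 3 of them passed in either direction. Single neighbours ranged from -2.27, beside PHGDH, to 2.31, beside PSPH. By the distance of log2 profiles over the 4 arrays, each centred on its control mean, the genes nearest to the brighter PSPH probe among 8785 genes detected on every array were XRCC2, PDLIM5 and IFI6. Their differences were 0.91, 0.89 and 0.89 and their distances 0.035, 0.036 and 0.040.

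Other genes that handle serine, glycine and folate-bound one-carbon units were mostly higher where they passed. Of 20 measured genes besides the members, 10 rose and 3 fell (65% passed), with a median of 0.35, beside 35.9% of all 9530 genes passing (17.4% higher, 18.5% lower; median -0.01). Each gene is given here and below by its brightest kept probe, and all lists were written with earlier results of these data known. The lists share genes, so their counts are not separate. CTH is in the one-carbon, ATF4 enzyme and glutathione lists, and MTHFD2 and SLC1A4 are in the one-carbon and ATF4 enzyme lists. ATF5 is in the ATF4 signalling and leucine zipper lists. Of the 4 parts of the glycine cleavage system 2 rose, 1 fell and 1 did not pass. GCSH, its lipoyl carrier, read 10.78 and 10.60 in the KLF3 knockdown against 9.78 and 9.86 in control, and GLDC, its decarboxylase, 8.33 and 8.42 in the KLF3 knockdown against 7.77 and 7.82 in control. GCSH rose 1.83-fold but lies on chromosome 16, while GLDC on chromosome 9 rose 1.49-fold. DLD, its lipoamide dehydrogenase, which other enzyme complexes share, fell by 0.31, and AMT, its aminomethyltransferase, did not pass (0.03, limma adjusted p = 0.885). The folate receptor gene FOLR1 rose 1.75-fold, and TYMS, which uses a one-carbon unit to make thymidylate, 1.43-fold. SHMT1, the cytosolic counterpart of SHMT2, MTHFD1 and MTHFD2, which carry folate units through their oxidation states, and the mitochondrial serine carrier SFXN1 rose by 0.55, 0.51, 0.44 and 0.60. These 4 were chosen after their values were seen. The 3 that fell were the neutral amino acid and serine transporter SLC1A4 (-0.57), the folate carrier SLC19A1 (-0.44) and DLD, and SLC19A1, DLD and AMT were likewise chosen after their values were seen. Without background correction FOLR1 differed by 0.44, MTHFD1 by 0.34, SLC1A4 by -0.32 and SLC19A1 by -0.27. With background correction, SHMT1 differed by 0.35 as the mean of its probes. Of the genes named here that passed, only GCSH, FOLR1 and GLDC did so under every alternative. TYMS and SLC1A4 did not in 1 fit that left an array out. The others also failed under an alternative that kept all arrays. There the largest limma adjusted p was 0.0517 for SHMT1, 0.0534 for MTHFD1 and 0.089 for MTHFD2. It was 0.0911 for SFXN1, 0.117 for SLC19A1 and 0.144 for DLD. Without control replicate 1 or 2 the list had 6 and 4 higher genes. Over all lists 55 of the genes followed under each alternative passed, and of these 29 did not pass without control replicate 1, 32 without control replicate 2 and 27 with no filter.

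Known ATF4 targets for metabolism and transport passed in both directions. Of 17 measured genes besides the members, 5 rose and 5 fell (58.8% passed beside 35.9% of all genes, median 0.00). The 5 that rose included PCK2, the mitochondrial phosphoenolpyruvate carboxykinase, at 10.81 and 10.82 in the KLF3 knockdown against 10.38 and 10.29 in control, CTH, which makes cysteine, and ALDH18A1, which starts proline synthesis (0.48, 0.51 and 0.45). MTHFD2, given above, and ATP6V0D1, a proton pump subunit on chromosome 16 (0.56), were the others. STC2, which encodes the secreted stanniocalcin 2, read 7.01 and 7.06 in the KLF3 knockdown against 8.10 and 8.18 in control and fell by 1.10 (SE 0.09, limma adjusted p = 0.000929). The other 4 that fell carry amino acids across the cell membrane: SLC1A4, SLC7A1, SLC1A5 and SLC38A2 fell by 0.57, 0.45, 0.32 and 0.31. The heavy and light chains of the large neutral amino acid transporter, SLC3A2 (0.00) and SLC7A5 (-0.12), did not pass. STC2 passed under every alternative, with -0.70 without background correction, whereas without control replicate 2 the list had 0 higher and 2 lower genes and without control replicate 1 it had 2 and 1. ALDH18A1, SLC7A1, SLC38A2, SLC1A5, SLC3A2 and SLC7A5 were chosen after their values were seen.

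ATF4 targets for signalling and transcription were lower more often than higher where they passed. Of 20 measured genes besides the members, 2 rose and 7 fell (45% passed, median -0.08). Over all genes 35.9% passed, 17.4% higher and 18.5% lower. ATF5, a factor related to ATF4, read 9.97 and 9.97 in the KLF3 knockdown against 10.54 and 10.57 in control and fell by 0.58 (SE 0.08, limma adjusted p = 0.00524). The secreted stress factor GDF15 read 10.23 and 10.06 in the KLF3 knockdown against 10.77 and 10.77 in control and fell by 0.62. NIBAN1, a stress-induced protein gene, fell by 0.60. The nuclear protein gene NUPR1 went the other way, at 7.17 and 7.28 in the KLF3 knockdown against 5.93 and 5.86 in control, a rise of 1.33 (SE 0.09, limma adjusted p = 0.000584), and it lies on chromosome 16, as does the autophagy gene MAP1LC3B (0.36), the other that rose, chosen after its value was seen. ATF3, CEBPB, CEBPG and SESN2, chosen after their values were seen, did not pass, with differences of -0.03, -0.02, 0.06 and -0.07. Without background correction NUPR1 differed by 0.62. NUPR1, ATF5 and GDF15 passed under every alternative, and NIBAN1 did not without control replicate 1 or 2 (limma adjusted p = 0.0538 and 0.0501). Without control replicate 1 or control replicate 2 the list had 2 lower genes, without knockdown replicate 2 it had 4, and without any 1 array 1 higher gene.

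**Figure D3:**
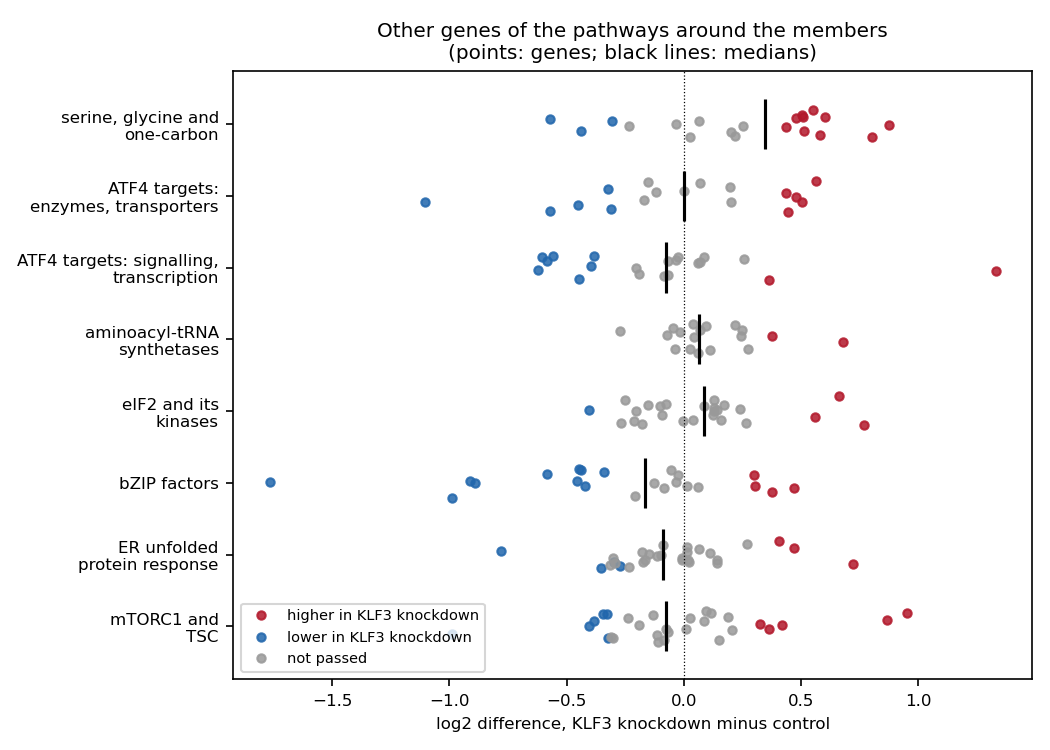
Log2 difference, KLF3 knockdown minus control (horizontal axis), of the measured genes of 8 pathway lists without the members, 1 point a gene by its brightest kept probe, with black lines at the medians. Red and blue points passed the adjusted threshold as higher and lower, grey points did not pass, and the serine, glycine and one-carbon genes had the highest median at 0.35. The points and median of the leucine zipper row include BATF3, DBP, FOSL1 and JUNB, and those of the eIF2 row include EIF2AK3 and PPP1R15B. These genes entered the fit through 1 group only.

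Of the 4 kinases that phosphorylate eIF2 and so raise ATF4 translation, EIF2AK4 (GCN2), the sensor of uncharged tRNA, rose. It read 8.51 and 8.64 in the KLF3 knockdown against 8.04 and 7.98 in control, a difference of 0.56 (SE 0.09, limma adjusted p = 0.00786), but did not pass without control replicate 2 (limma adjusted p = 0.0582). EIF2AK1, the heme-regulated kinase of red cell precursors, read 12.48 and 12.38 in the KLF3 knockdown against 12.26 and 12.29 in control and did not pass (0.16, limma adjusted p = 0.204). EIF2AK2, the kinase activated by double-stranded RNA, differed by 0.13, and EIF2AK3 (PERK), detected on 1 of the 2 knockdown arrays, by -0.27. Neither passed. In the list of eIF2, its kinases and its phosphatases 3 of 25 genes rose and 1 fell (16% passed beside 35.9% of all genes, median 0.09). EIF2S2, the beta subunit of eIF2, rose 1.71-fold, and EIF2B3, a subunit of its exchange factor, 1.58-fold, both under every alternative. PPP1CA, a catalytic subunit of the phosphatase that acts on eIF2, fell by 0.40, which did not pass without control replicate 1 or 2 or knockdown replicate 2 (limma adjusted p = 0.0725, 0.121 and 0.0599).

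The list of basic leucine zipper factors, the family of ATF4 and DDIT3, also held CEBPZ, which shares only the C/EBP name and did not pass (-0.05). From this list 18 genes besides the members were detected on all 4 arrays. Of these 3 rose and 7 fell (median -0.11), beside 17.4% of all genes higher and 18.5% lower. Another 4 genes, BATF3, DBP, FOSL1 and JUNB, entered the fit through 1 group only, the group in which they were higher. Such entry favours a difference, so they are given as values and left out of the count above. With them 4 genes were higher and 10 lower of 22 (63.6% passed, median -0.17). BATF3, a partner of JUN proteins, read 5.28 and 5.67 in the KLF3 knockdown, where 1 of 2 arrays detected it, against 7.26 and 7.22 in control. JUNB was undetected in the KLF3 knockdown and at least 1.53-fold lower there. Without background correction BATF3 differed by -0.77 and JUNB by -0.32. BACH2, a relative of the heme-sensing repressor BACH1, was detected on every array, was 1.99-fold lower and passed under every alternative, with a difference of -0.57 without background correction. Without control replicate 1 or 2 the whole list of 22 had 5 and 4 lower genes. DBP read 5.98 and 5.86 in the KLF3 knockdown against 5.55 and 5.34 in control, where 1 of 2 arrays detected it. FOSL1 was undetected in the KLF3 knockdown and at least 1.48-fold lower there. Both DBP and FOSL1 were named after their values were seen.

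Cytosolic aminoacyl-tRNA synthetases, many of which ATF4 induces, passed in few cases, with 2 of 18 up and 0 down by limma (6 and 1 at an unadjusted p under 0.05). Of them 11.1% passed beside 35.9% of all genes, and their median was 0.07. AARS1, on chromosome 16, rose by 0.68 under every alternative and EPRS1 by 0.38, which did not pass without control replicate 1 or 2 or knockdown replicate 1 (limma adjusted p = 0.104, 0.109 and 0.0726). Genes of the unfolded protein response of the endoplasmic reticulum, which induces DDIT3 through its own branch of eIF2 phosphorylation, moved both ways. Of 29 genes 3 were up and 4 down (24.1% passed beside 35.9% of all genes, median -0.09). The disulfide isomerases PDIA4 and PDIA6 and the chaperone HSP90B1 rose by 0.72, 0.41 and 0.47. None of them passed without control replicate 1, nor PDIA6 and HSP90B1 without control replicate 2. PDIA4 and PDIA6 also did not pass under an alternative that kept all arrays (limma adjusted p = 0.0539 and 0.0581). PDIA4 differed by 0.36 without background correction. The co-chaperone DNAJC10, on chromosome 2, was 1.72-fold lower and passed under every alternative. The others that fell were HSPA5 (-0.35), DERL2 (-0.30) and SEC61B (-0.27). They were chosen after their values were seen and were not followed under each alternative.

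Around DDIT4, genes of mTORC1 and its regulators passed at a share near that of all genes, 37.9% beside 35.9%, with 5 up and 6 down of 29 (median -0.07). NPRL3, a subunit of a complex that shuts mTORC1 off when amino acids are low, rose 1.94-fold and lies on chromosome 16. RRAGD, a GTPase that carries the amino acid signal to mTORC1, was 1.99-fold lower, and the stress-induced inhibitor SESN1 rose 1.82-fold. These 3 passed under every alternative. RHEB, the direct activator of mTORC1, rose by 0.42 but not without control replicate 1 or 2 (limma adjusted p = 0.106 and 0.0623).

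Beside CHAC1, the glutathione list had 3 of 14 genes up and 2 down (median 0.06), and its 35.7% passing is near the 35.9% of all genes. CHAC2, the constitutive relative of CHAC1, read 6.47 and 6.70 in the KLF3 knockdown against 5.84 and 5.71 in control and rose by 0.81 (SE 0.11, limma adjusted p = 0.00453). It passed under every alternative, with a difference of 0.32 without background correction. OPLAH, which recycles oxoproline, the product of both CHAC enzymes, fell by 0.56, and glutathione reductase GSR by 0.35; OPLAH did not pass without control replicate 1 (limma adjusted p = 0.0549) and GSR without any 1 array (between 0.0507 and 0.150). Genes of asparagine and aspartate use around ASNS showed 1 up and 2 down of 12 (25% passed, median 0.01). GOT2, on chromosome 16, rose by 0.44, and ASS1 and CAD fell by 0.47 and 0.46, none of them without control replicate 1 or 2 (limma adjusted p between 0.0686 and 0.109). In a list of 10 genes around MYC and NRF2 control of serine synthesis 2 rose and 2 fell (40% passed, median 0.06), and 1 of those that rose was GLDC, an enzyme already counted above and not a regulator. KEAP1, the inhibitor of the factor NRF2, was 1.79-fold lower under every alternative, and NFE2L2, which encodes NRF2, fell by 0.34, not without any 1 array (limma adjusted p between 0.0552 and 0.148). MXI1, an antagonist of MYC, rose by 0.88 (0.39 without background correction). It did not pass without control replicate 2 or knockdown replicate 1, nor under an alternative that kept all arrays (limma adjusted p = 0.104). MYC itself did not pass (-0.07, chosen after its value was seen).

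**Figure D4:**
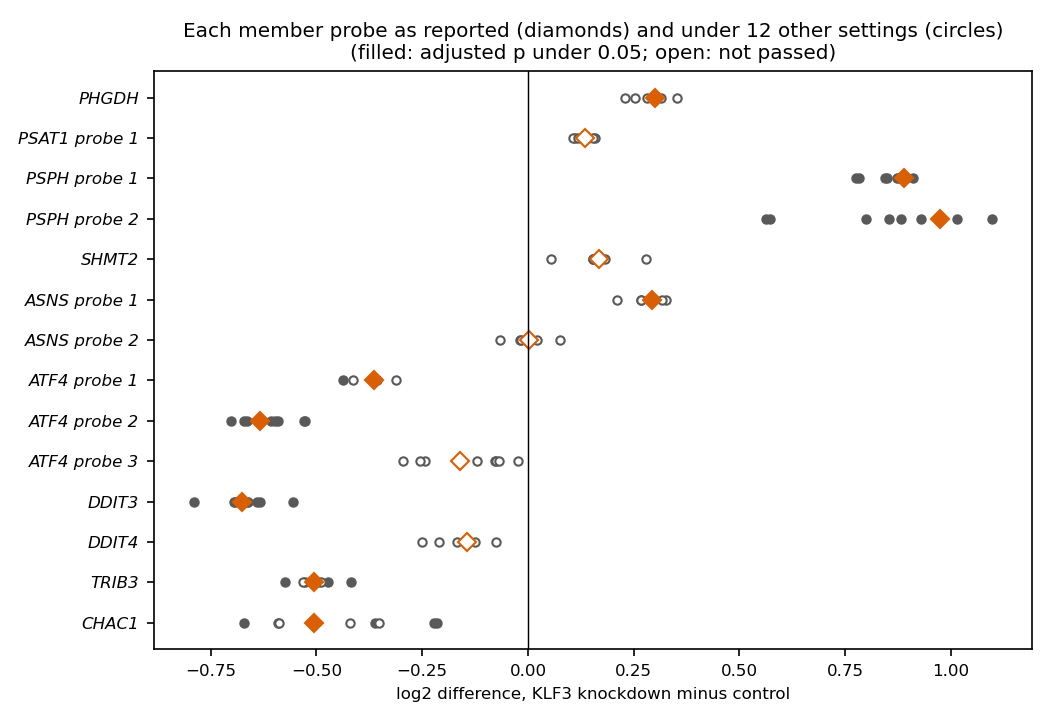
Log2 difference, KLF3 knockdown minus control (horizontal axis), of the 14 detected member probes as reported (diamonds) and under 12 other settings of processing, sample choice and model (circles), where filled symbols passed the adjusted threshold and open ones did not. PSPH probes 1 and 2, ATF4 probe 2 and DDIT3 stayed filled throughout, and ASNS probe 2 is the member whose values fell on both sides of 0.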

How the data were processed

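Gene expression was measured on Illumina bead arrays in 4 K562 samples. The deposited scanner table held an intensity, linear and neither normalized between arrays nor background-subtracted, and a detection p-value per probe, per the file headers and values; the scanner software and version: not given in the sources used here. The authors' processed table, linear intensity values with nearly the same distribution and a median of 139 on every array, served as an alternative only. Medians of the scanner arrays lay between 136 and 140.

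Intensities were normalized with neqc (limma 3.58.1, R 4.3.3; offset 16) and tested in 1 limma model (two-sided, 2 residual and 4.09 prior degrees of freedom) over 15722 probes; standard errors and intervals are from that fit. An exact permutation test of 2 against 2 cannot go below p = 0.333. Tested on simulated data over 15722 probes, the fit called 100 of 100 probes changed by 1 on the log2 scale, 69 of 100 changed by 0.5 and 16 of 15522 unchanged ones. The simulation changed far fewer probes than the 34.5% that passed here, and its noise was independent between arrays. It therefore does not give the power or error rate of the real comparison. Of all probes, 30112 had 1 symbol, 8 several and 17202 none. For 30073 probes the symbol was matched by gene identifier. A gene undetected in 1 group is given as a bound, against the higher of its own signal and the lowest detected one.

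The number of arrays limits the precision. Replicate numbers (the array labelled Repeat as 2) did not pair the samples: deviations of same-numbered arrays correlated with r = 0.009. The members, their grouping and the lists were chosen with earlier results of these data known. Genes named were all members, up to 4 genes of each list that passed, by smallest adjusted p, the eIF2 kinases, and others marked as chosen after their values were seen. Alternatives covered background, offset, scaling, filter, the authors' values, variance trend, replicate block, the mean of a gene's probes and leaving out each array.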

Additional observations from a re-analysis of the deposited data

How the results depend on the processing

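Over the 14 kept member probes and their alternatives, 171 values in all, 141 kept direction and call, 27 kept direction but not the call, and 3 changed sign, all of them ASNS probe 2 (ILMN_2398107), at -0.018 with median scaling, -0.016 without knockdown replicate 2 and -0.067 without control replicate 1, within a range up to 0.076 without control replicate 2. EIF2AK3 turned to 0.044 without knockdown replicate 2 and was -0.58 without knockdown replicate 1, where it passed. Of 55 named pathway genes that passed, 19 passed under every alternative. Median scaling moved the median of all kept probes from -0.01 to -0.08 and the share of higher calls from 49.1% to 37.8%.

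With no filter, which adds dim probes to the number of tests, 1152 probes were higher and 1121 lower, in place of 2663 and 2757, and member probes 2 and 2, in place of 4 and 5. With no filter the lists had, higher and lower, 5 and 1 (one-carbon), 2 and 2 (ATF4 enzymes and transporters), 1 and 3 (ATF4 signalling), 0 and 5 (leucine zipper), 1 and 1 (unfolded protein response), 2 and 1 (mTORC1), 1 and 1 (glutathione), 0 and 0 (asparagine), 1 and 1 (serine regulators), 1 higher synthetase and 0 lower eIF2 genes. Median scaling gave 2 higher member probes and 1 higher gene each in the ATF4 signalling, leucine zipper and synthetase lists. With the replicate block, which is a pairing by label only, 2 member probes were higher, and there were 3 lower ATF4 enzymes and transporters, 2 higher leucine zipper, 2 lower unfolded protein and 3 lower mTORC1 genes; the cause was not tested. The authors' values and no background correction both gave 8 lower unfolded protein genes, and the intensity trend 7, and each of these 3 gave 6 higher and 1 lower synthetases and 4 lower eIF2 genes; the authors' values also gave 2 higher leucine zipper genes. An offset of 50 gave 5 higher and 1 lower synthetases, and the mean of a gene's probes 5 higher synthetases and 5 higher eIF2 genes.

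Leaving out 1 array left 1071 to 2236 probes higher and 986 to 2522 lower, member probes 2 to 2 higher and 2 to 4 lower. For the lists the higher and lower counts were then 4 to 9 and 1 to 2 (one-carbon), 0 to 4 and 1 to 4 (ATF4 enzymes and transporters), 1 to 1 and 2 to 6 (ATF4 signalling), 1 to 2 and 0 to 1 (synthetases), 2 to 3 and 0 to 2 (eIF2), 0 to 2 and 4 to 8 (leucine zipper), 0 to 3 and 1 to 2 (unfolded protein), 2 to 4 and 1 to 3 (mTORC1), 1 to 3 and 0 to 1 (glutathione), 0 to 1 and 0 to 2 (asparagine) and 1 to 2 and 1 to 2 (serine regulators). The lone array of a group was assumed to vary like the pair of the other group.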
